A study of Mus musculus with 12 samples.

Results

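The 9 genes described here encode the receptors of type I and type II interferon and the kinases and transcription factors that work directly under them: Ifnar1, Ifnar2, Ifngr1, Ifngr2, Jak1, Jak2, Tyk2, Stat2 and Irf9. They were chosen by gene symbol and not by a measured value, but with earlier results of these data known. Each symbol matched 1 row in each table, 9 genes of the 40077 listed for cells and of the 34508 listed for tumors. RNA sequencing covered 12 mouse libraries in 4 groups of 3. Myc-CaP cells, a murine prostate cancer line driven by a MYC transgene, were treated in culture with DMSO or with YJ1206, an orally available degrader of CDK12 and CDK13, at 1 µM for 24 hours. The line was also implanted under the skin of male FVB mice to form tumors. These mice were dosed orally 3 times a week, either with 100 mg/kg of YJ1206 or with vehicle. All 4 groups thus share the MYC transgene, and the tumors also hold cells of an immunocompetent host. Ages of the mice and the length of treatment for these tumors were not given in the sources used here. The study's methods describe its replicates in general as biologically independent, while the labels name no culture or animal for any library, and p-values measure the spread between these libraries. The study asks whether loss of CDK12 and CDK13 turns on STING signaling, a cytosolic DNA sensing route that leads to type I interferon. The comparisons below ask how the genes needed to receive an interferon signal changed.

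Type I interferons bind a receptor made of IFNAR1 and IFNAR2, which are held by the kinases TYK2 and JAK1. IFN-γ binds IFNGR1 and IFNGR2, held by JAK1 and JAK2. Phosphorylated STAT2 joins IRF9 in the complex ISGF3, which binds interferon-stimulated response elements (ISREs), whereas IFN-γ acts mainly through gamma-activated sites (GAS). Stat2 and Irf9 are themselves known interferon-inducible genes, while the receptor and kinase genes are expressed in most cell types.

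Promoter sequences were examined for these 2 binding motifs. Each window runs from 250 bases before to 50 bases after the transcription start of RefSeq (GRCm38.p6), and the 9 genes have 10 windows, since Irf9 has 2. The ISRE core searched was GAAANNGAAA and the GAS was TTCNNNGAA, on both strands. Of 32851 such windows for all genes, 3.44% hold the ISRE core and 8.3% hold the GAS. The 3 member windows with a match are shown, that of Stat2 because it changed most in tumors. Ifnar1 and Ifnar2 are shown because they lie in the same gene cluster and their transcripts moved in opposite directions in cells. No window holds more than 1 match. Capitals mark it, and each sequence reads 5′ to 3′ on the strand of the gene.
Stat2, chr10:128270248-128270547, plus strand: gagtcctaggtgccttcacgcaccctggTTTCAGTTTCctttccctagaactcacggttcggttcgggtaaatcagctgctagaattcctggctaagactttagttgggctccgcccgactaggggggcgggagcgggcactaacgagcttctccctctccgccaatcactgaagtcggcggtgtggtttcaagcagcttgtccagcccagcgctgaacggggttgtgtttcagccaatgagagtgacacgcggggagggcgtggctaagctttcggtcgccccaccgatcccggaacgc
Ifnar2, chr16:91372533-91372832, plus strand: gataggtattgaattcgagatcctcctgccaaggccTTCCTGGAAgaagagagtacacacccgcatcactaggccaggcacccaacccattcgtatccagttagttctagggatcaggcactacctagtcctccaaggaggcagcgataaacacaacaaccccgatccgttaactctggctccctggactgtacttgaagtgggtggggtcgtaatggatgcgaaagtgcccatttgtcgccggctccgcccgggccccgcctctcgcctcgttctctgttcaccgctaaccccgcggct
Ifnar1, chr16:91484965-91485264, plus strand: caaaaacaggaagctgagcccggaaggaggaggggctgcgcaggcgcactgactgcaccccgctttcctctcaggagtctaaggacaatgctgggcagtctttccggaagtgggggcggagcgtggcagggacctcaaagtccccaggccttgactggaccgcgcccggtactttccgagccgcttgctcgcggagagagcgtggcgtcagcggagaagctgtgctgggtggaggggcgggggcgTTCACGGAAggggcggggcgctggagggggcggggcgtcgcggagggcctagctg
Stat2 holds an ISRE core at bases -222 to -213 from the start, read on the opposite strand, with the start base counted as 0. Ifnar2 holds a GAS at -214 to -206 and Ifnar1 a GAS across the start, at -5 to 3. No match was found in the windows of Ifngr1, Ifngr2, Jak1, Jak2, Tyk2 or Irf9, which says only that these letters are absent there.

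By annotation (GENCODE vM21, GRCm38), 3 of the 4 receptor genes lie in the same cluster on chromosome 16. Ifnar2 (ENSMUSG00000022971.18, 91372783 to 91405589), Ifnar1 (ENSMUSG00000022967.13, 91485238 to 91507441) and Ifngr2 (ENSMUSG00000022965.8, 91547072 to 91565623) share the plus strand of a 192.8-kb stretch that also holds Il10rb, a subunit of the IL-10 and type III interferon receptors. The stretch holds 5 protein-coding genes, and Il10rb lies between Ifnar2 and Ifnar1. Gm21970 is annotated across Ifnar2 and Il10rb, and it had 0 to 4 estimated counts in cells and 6 to 33 in tumors. Ifngr1 (ENSMUSG00000020009.13) is on chromosome 10 at 19591949 to 19610229 and Stat2 (ENSMUSG00000040033.16) on the same chromosome at 128270559 to 128292849. Jak1 (ENSMUSG00000028530.14, chromosome 4, 101152367 to 101265282) spans 112.9 kb, Jak2 (ENSMUSG00000024789.13, chromosome 19, 29251828 to 29313080) 61.3 kb and Tyk2 (ENSMUSG00000032175.11, chromosome 9, 21104068 to 21131243) 27.2 kb. Irf9 (ENSMUSG00000002325.15, chromosome 14, 55603571 to 55610030) is the shortest of the 9, with 6.5 kb. Tyk2 is overlapped by an antisense gene, 1700084C06Rik, that was not in the tables. Irf9 overlaps the 3′ end of Rnf31 on the same strand. Whether reads were assigned by strand was not given in the sources used here, so reads of Tyk2 and its antisense partner cannot be told apart.

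Depth was about 13937000 to 18520100 estimated counts per cell library and 15391700 to 26928400 per tumor library. Levels are given as TPM, which adjust for transcript length, and changes as log2 fold changes (log2FC) of CPM under TMM scaling with an edgeR quasi-likelihood test. Cell and tumor tables were normalized separately. The molecule label reads polyA RNA for cells and total RNA for tumors, but the library protocol in the labels of all 12, like the study's methods, describes depletion of ribosomal RNA from total RNA. The DMSO and YJ1206 cell libraries carry separate runs of library numbers, so any such batch and the treatment cannot be told apart. Epithelial and prostate markers summed to 323 to 441 TPM in cells, with Epcam at 0 counts in all 6 libraries. In vehicle tumors, the skeletal muscle marker sum spanned 26.6 to 695 TPM, against 11.05 to 13.4 with YJ1206, and all 4 muscle markers tested were lower. Library 3 of each tumor group lay between libraries 1 and 2 in 98.1% (vehicle) and 97.0% (YJ1206) of the genes that differ between those libraries. The same shares in the cell groups were 54.5% to 80.9%. Whether library 3 is independent of the other libraries of its group was not tested. If it is not, the SE and adjusted p of every fit with all tumor libraries are too small. Tumor results are therefore also given without libraries 3. With 2 libraries a group, 1 gene of 15684 passed the adjusted threshold (edgeR, 3068 at an unadjusted p under 0.05), and none of the 9 genes did. In bulk samples, fewer cells of a type and less RNA per cell cannot be told apart.

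**Figure D1:**
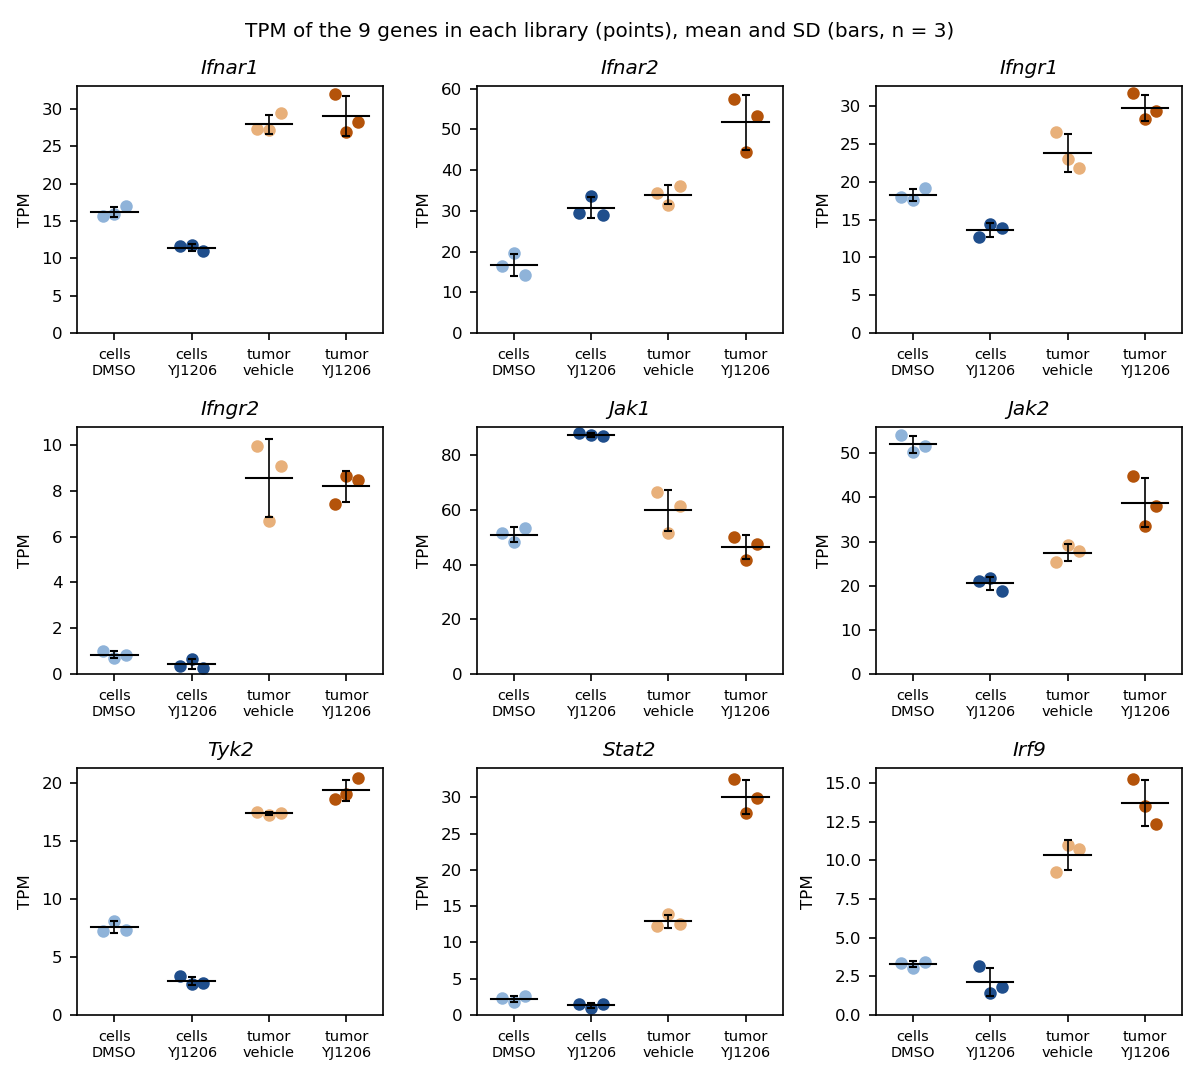
TPM (y axis, linear from 0) of each of the 9 genes in the 12 libraries, by group (x axis), with the mean and SD of 3 libraries. Stat2, Irf9, Ifngr2, Tyk2, Ifnar1 and Ifngr1 lie higher in both tumor groups than in both cell groups. Jak1 is highest in YJ1206-treated cells and Jak2 in DMSO-treated cells.

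In Myc-CaP cells, YJ1206 moved the kinases of the pathway apart. In CPM under TMM scaling, Jak1 rose 2.15-fold, while Jak2 fell to 0.47 and Tyk2 to 0.32 of the control. Among the receptors, Ifnar2 rose 1.91-fold and Ifnar1 fell to 0.83. Of the 9 genes, 2 rose, 3 fell and 4 did not pass an adjusted p of 0.05. Over all 11826 genes tested, 76.1% passed, with 37.8% higher and 38.3% lower, so 5 of 9 is not above the background. Groups did not overlap in CPM for 5 of the 9 genes, against 77.5% of all genes.

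Jak1, the kinase shared by both receptors, measured 144, 137 and 145 CPM in the 3 DMSO libraries and 304, 305 and 309 CPM with YJ1206. Every treated library was above every control (log2FC 1.11 ± 0.033 SE, adjusted p = 3.28e-21, n = 3 per group). Jak2, which serves the IFN-γ receptor, measured 143, 132 and 133 CPM with DMSO and 65.3, 64.5 and 61.6 CPM with YJ1206. All treated libraries were lower (log2FC -1.09 ± 0.043, adjusted p = 1.59e-18). Tyk2, the kinase bound to IFNAR1, fell from 18.6, 20.9 and 18.7 CPM to 6.01, 5.96 and 6.69 CPM (log2FC -1.64 ± 0.11, adjusted p = 1.10e-13). That log2FC was at percentile 2.82 of all genes tested, and those of Jak1 and Jak2 were at percentiles 93.4 and 8.90.

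Ifnar2, which encodes a chain of the type I receptor, measured 12.4, 13.4 and 10.98 CPM with DMSO and 22.6, 24.2 and 23.3 CPM with YJ1206 (log2FC 0.93 ± 0.090, adjusted p = 4.04e-10). Its partner Ifnar1 went from 35.2, 35.1 and 37.8 CPM to 30.3, 30.3 and 29.4 CPM (log2FC -0.26 ± 0.063, adjusted p = 0.00051). Both receptor chains were thus separated by treatment, in opposite directions. Ifngr1, the ligand-binding chain of the IFN-γ receptor, measured 20.0 to 21.6 CPM with DMSO and 17.7 to 20.2 CPM with YJ1206 (log2FC -0.11 ± 0.082, adjusted p = 0.23). Ifngr2, the accessory chain, was near the limit of these libraries, with 41, 29 and 35 estimated counts against 14, 23 and 10 (log2FC -0.61 ± 0.33, adjusted p = 0.091). The groups overlapped for both IFN-γ receptor genes.

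Stat2 and Irf9, which encode subunits of ISGF3, were low in culture. Stat2 had 113, 88 and 131 estimated counts with DMSO and 67, 40 and 65 with YJ1206 (log2FC -0.40 ± 0.19, adjusted p = 0.054). Irf9 had 80, 91 and 91 counts against 76, 35 and 44 (log2FC -0.22 ± 0.21, adjusted p = 0.35), and in CPM the first YJ1206 library was above all controls and the other two below them. Neither passed the threshold. Scaling by total counts lowers the median of all genes in cells to -0.20 from -0.02, and under it Ifngr1, Ifngr2 and Stat2 also passed as lower, giving 8 of 9 genes called. Relative to that median they stood at -0.091, -0.59 and -0.39, close to their values under TMM. Total-count scaling gave log2FC of 0.92 for Jak1, 0.75 for Ifnar2, -0.45 for Ifnar1, -1.28 for Jak2 and -1.83 for Tyk2.

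**Figure D2:**
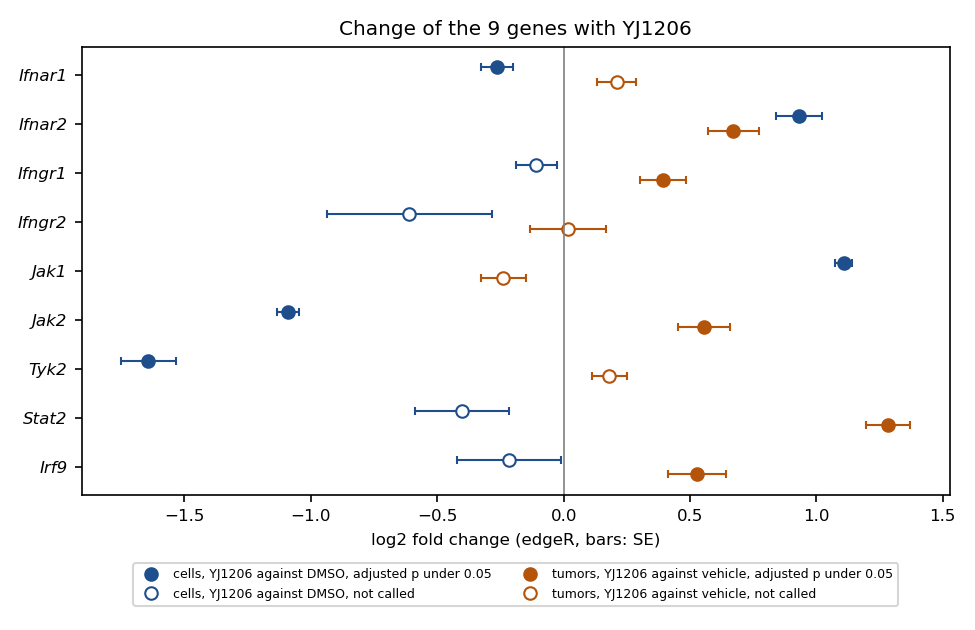
Log2 fold change of each gene (x axis, bars: SE) with YJ1206, in cells (blue, against DMSO) and in tumors (orange, against vehicle). Filled points passed an adjusted p of 0.05. Jak2 fell in cells (-1.09) and rose in tumors (0.56), and Stat2 had the largest rise in tumors (1.28).

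In tumors, the 9 genes changed in another pattern, with Stat2 rising most. Stat2, Ifnar2, Jak2, Irf9 and Ifngr1 rose, none fell, and Ifnar1, Ifngr2, Jak1 and Tyk2 did not pass. Of all 15558 genes tested, 26.8% passed and 11.9% passed as higher, against 5 of the 9. In 7 of the 9 genes the groups did not overlap in CPM, against 44.6% of all genes. Without libraries 3, no member passed, with log2FC of 1.26 for Stat2 (adjusted p = 0.13), 0.74 for Ifnar2 (0.14), 0.57 for Jak2 (0.17), 0.58 for Irf9 (0.18) and 0.34 for Ifngr1 (0.26).

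Stat2 measured 32.4, 38.2 and 33.2 CPM in vehicle tumors and 90.0, 79.3 and 83.8 CPM in YJ1206 tumors. The lowest treated library was more than 2 times the highest control (log2FC 1.28 ± 0.088, adjusted p = 0.00063), at percentile 98.5 of all genes. This is the gene with the ISRE core shown above, but whether that motif has a part in the rise was not tested. Irf9 rose from 13.4, 16.3 and 14.5 CPM to 23.4, 20.9 and 19.4 CPM (log2FC 0.53 ± 0.12, adjusted p = 0.015). Its call was lost with the deposited TPM (adjusted p = 0.062 on log2(TPM + 1)) and without vehicle library 3 (0.069).

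Ifnar2 measured 22.3, 20.9 and 23.6 CPM with vehicle and 39.6, 32.4 and 34.2 CPM with YJ1206 (log2FC 0.67 ± 0.10, adjusted p = 0.0042). It is the 1 member that rose in both cells and tumors. Ifnar1 did not overlap between groups, with 58.3, 60.6 and 56.9 CPM against 73.8, 62.9 and 66.6 CPM, but did not pass (log2FC 0.21 ± 0.076, adjusted p = 0.081). Ifngr1 rose from 31.7, 28.6 and 26.2 CPM to 39.9, 36.5 and 37.4 CPM (log2FC 0.39 ± 0.092, adjusted p = 0.019). This call was lost with the TPM (adjusted p = 0.059) and without vehicle library 3 (0.082), YJ1206 library 1 (0.058) or YJ1206 library 3 (0.072). Ifngr2 measured 21.9, 15.3 and 20.1 CPM with vehicle and 17.3, 20.6 and 19.9 CPM with YJ1206, fully overlapping (log2FC 0.017 ± 0.15, adjusted p = 0.95), and its sign turned under several settings.

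Among the kinases, Jak2 rose from 68.8, 79.8 and 75.0 CPM to 124, 96.6 and 108 CPM in tumors (log2FC 0.56 ± 0.10, adjusted p = 0.0084). Jak1 measured 164, 136 and 146 CPM with vehicle and 136, 115 and 127 CPM with YJ1206 (log2FC -0.24 ± 0.089, adjusted p = 0.090). The ranges met at 1 vehicle and 1 treated library. Without vehicle library 2, Jak1 passed as lower (log2FC -0.30, adjusted p = 0.025). Tyk2 measured 40.2, 40.8 and 38.3 CPM against 43.6, 44.3 and 47.5 CPM (log2FC 0.18 ± 0.069, adjusted p = 0.094), without overlap. Macrophage marker sums, read beside these values, were 197 to 278 TPM with vehicle and 263 to 344 TPM with YJ1206, with 3 of 8 markers higher, and leukocyte sums were 45.5 to 52.4 and 46.8 to 63.9 TPM, with 0 of 4 called. Epithelial and prostate marker sums were 364 to 367 TPM with vehicle and 582 to 624 TPM with YJ1206. Of 5 such markers tested 1 was higher. Fibroblast sums were 226 to 735 and 165 to 364 TPM, with 0 of 7 markers called. Of 4 neutrophil markers tested 1 was lower, of 2 cytotoxic cell markers 1 was higher, and of 2 T cell markers 0 were called. Of all genes tested in tumors, 11.9% were higher and 14.9% lower. The part of these cell types in the member changes was not tested.

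Ratios of 2 genes within a library do not depend on the scaling between libraries. Ratios of TPM do depend on the transcript length assigned to each gene in that library. The Jak1 to Jak2 ratio of TPM was 0.95 to 1.03 in DMSO cells and 3.999 to 4.60 in YJ1206 cells. In tumors the order was the opposite, with 1.77 to 2.63 under vehicle and 1.12 to 1.25 under YJ1206. The Jak1 to Tyk2 ratio was 6.77 ± 0.75 with DMSO and 30.1 ± 3.35 with YJ1206 in cells (SD, n = 3) and was 3.44 ± 0.42 and 2.41 ± 0.26 in tumors. In estimated counts, the same ratio was 6.55 to 7.75 in DMSO cells and 46.2 to 51.2 in YJ1206 cells. The Ifnar2 to Ifnar1 ratio was 1.04 ± 0.20 with DMSO and 2.68 ± 0.15 with YJ1206 in cells, and 1.21 ± 0.053 and 1.77 ± 0.12 in tumors. It did not overlap between treated and control libraries in either. Stat2 to Irf9 stayed within overlapping ranges in cells (0.58 to 0.76 and 0.48 to 0.88) and was higher in every treated tumor (1.17 to 1.34 against 2.06 to 2.41). With 3 libraries against 3, an exact two-sided permutation test cannot go below p = 0.10, so these ratios carry no test.

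**Figure D3:**
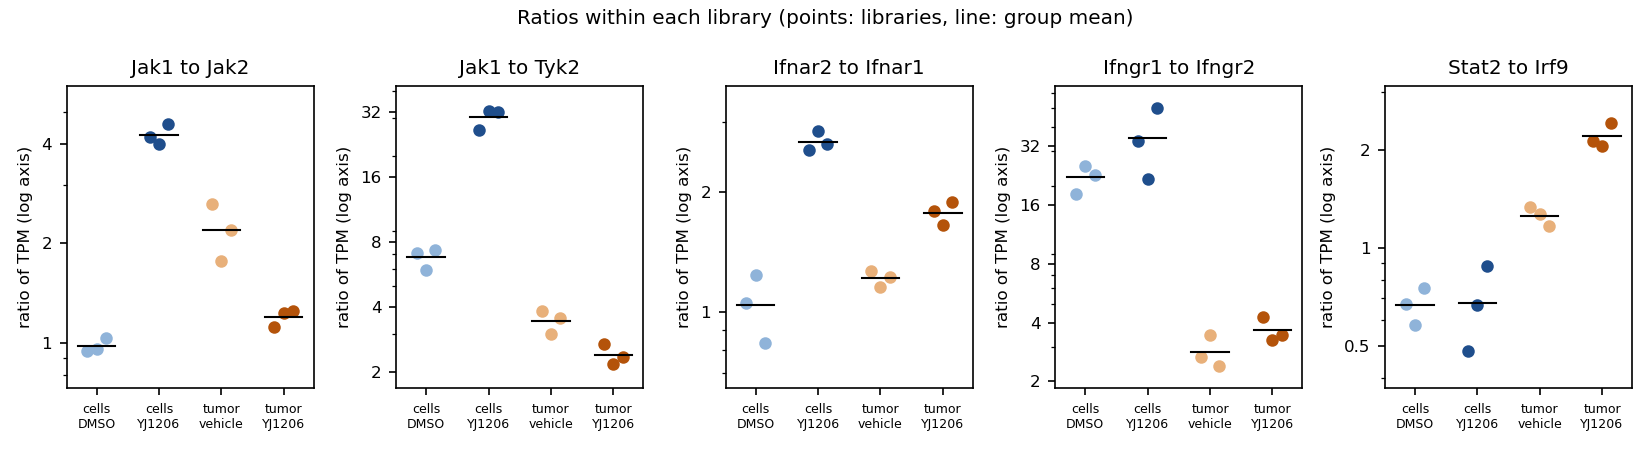
Ratio of the TPM of 2 genes within each library (y axis, log scale) for 5 pairs, by group (x axis). Points are libraries and lines are means. The mean of Jak1 to Jak2 is 0.98 and 4.27 in DMSO and YJ1206 cells and 2.20 and 1.20 in vehicle and YJ1206 tumors.

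The YJ1206 effect differed between tumors and cells for 7 of the 9 genes in a fit of all 12 libraries, where 46.8% of all genes passed. It was higher in tumors for Tyk2 (difference of log2FC 1.79 ± 0.11, adjusted p = 6.23e-08), Stat2 (1.65 ± 0.22, adjusted p = 3.66e-05), Jak2 (1.62 ± 0.11, adjusted p = 1.19e-07), Irf9 (0.71 ± 0.27, adjusted p = 0.044), Ifngr1 (0.47 ± 0.12, adjusted p = 0.0063) and Ifnar1 (0.44 ± 0.091, adjusted p = 0.0013). It was lower in tumors for Jak1 (-1.38 ± 0.10, adjusted p = 1.78e-07). The Irf9 difference was lost in 10 of the 12 fits that left out 1 library, with adjusted p up to 0.12, and in the fit without libraries 3 of both tumor groups (0.096). For Ifnar2 (-0.29 ± 0.14, adjusted p = 0.10) and Ifngr2 (0.60 ± 0.34, adjusted p = 0.18) no difference passed. Culture and animal dosing, and the presence of host cells, differ between the experiments and cannot be told apart here.

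Without the compound, the levels of the genes also differed between tumors and cultured cells. Of the 9 genes, 8 passed in this comparison, as did 82.9% of all genes. Ifngr2 was 7.64-fold higher in vehicle tumors than in DMSO cells (log2FC 2.93 ± 0.22, adjusted p = 3.98e-08), Stat2 4.40-fold (2.14 ± 0.15) and Irf9 2.37-fold (1.24 ± 0.18). Tyk2 (0.56), Ifnar2 (0.38) and Ifnar1 (0.23) were also higher. The median of all genes was 0.19, so Ifnar1 stood near that median. Jak2 was lower (-1.34 ± 0.079, adjusted p = 4.53e-09) and so was Jak1 (-0.41), although the latter was lost under total-count scaling (-0.042, adjusted p = 0.59), which moves the median of all genes from 0.19 to 0.56. Ifngr1 stood at 0.0013 ± 0.085 and, among the settings run, passed only under total-count scaling (0.37). Leukocyte markers summed to at most 0.081 TPM in cells. Host cells and culture cannot be told apart in this comparison.

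In order of mean TPM, Jak1 ran from YJ1206 cells (87.4 ± 0.57, SD, n = 3) through vehicle tumors (59.8 ± 7.58) and DMSO cells (51.0 ± 2.66) to YJ1206 tumors (46.5 ± 4.42). Of these, YJ1206 cells alone did not overlap a neighbor. These ranges are of TPM, not of the CPM under TMM scaling that the tests used. In the fit of all 12 libraries, Jak1 was lower in vehicle tumors than in DMSO cells (log2FC -0.41). Jak2 ran from DMSO cells (52.1 ± 1.96) to YJ1206 tumors (38.8 ± 5.60), vehicle tumors (27.5 ± 1.99) and YJ1206 cells (20.6 ± 1.51), with no overlap between neighbors. For Tyk2 (19.3, 17.4, 7.57 and 2.93), Stat2 (30.1, 12.9, 2.22 and 1.36) and Ifngr1 (29.8, 23.8, 18.2 and 13.6), the order was YJ1206 tumors, vehicle tumors, DMSO cells and YJ1206 cells, again without overlap in TPM. In CPM the cell groups of Stat2 and of Ifngr1 overlapped. The tested log2FC of Ifngr1 in vehicle tumors against DMSO cells was 0.0013, so its order there holds for TPM only. Irf9 (13.7, 10.3, 3.30 and 2.14) and Ifnar1 (29.1, 28.0, 16.2 and 11.5) had the same order, with an overlap of the cell groups for Irf9 and of the tumor groups for Ifnar1. In CPM those tumor groups of Ifnar1 did not overlap. For Ifnar2 the order was YJ1206 tumors (51.7), vehicle tumors (33.9), YJ1206 cells (30.7) and DMSO cells (16.8), and the ranges of vehicle tumors and YJ1206 cells overlapped. Ifngr2 was 8.58 and 8.20 in vehicle and YJ1206 tumors, which overlapped, and 0.84 and 0.44 in DMSO and YJ1206 cells.

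The ratio of estimated count to TPM follows the length of the transcripts to which reads were assigned, and its change within a gene was used as an implied transcript length, a measure chosen after the data had been seen. The implied length of Tyk2 was lower with YJ1206 in cells. Relative to the DMSO mean, its implied length was 99.6% to 100.2% in the DMSO libraries and 56.8%, 69.6% and 76.1% with YJ1206 (log2 change -0.58 ± 0.11, adjusted p = 0.041, limma). Of 10762 genes with enough counts, the 5976 that varied between libraries were tested, and 7.35% of these passed. Ifngr1, Ifngr2 and Stat2 did not vary enough to be tested. The Tyk2 call rests on 79 to 87 counts per treated library, and leaving out 1 library in turn moved its adjusted p to between 0.024 and 0.13, over 0.05 in 4 of 6 fits. Coding transcripts of Tyk2 run from 1662 to 4828 bases in the annotation. Ifnar2 was at 79.4% to 87.6% with YJ1206 and 92.6% to 106% with DMSO (-0.25 ± 0.065, adjusted p = 0.087). Jak1 was at 101% to 102% with YJ1206. In tumors, 0% of 6988 genes passed (limma, 609 at an unadjusted p under 0.05), and Tyk2 was at 95.4% to 98.5% with YJ1206.

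**Figure D4:**
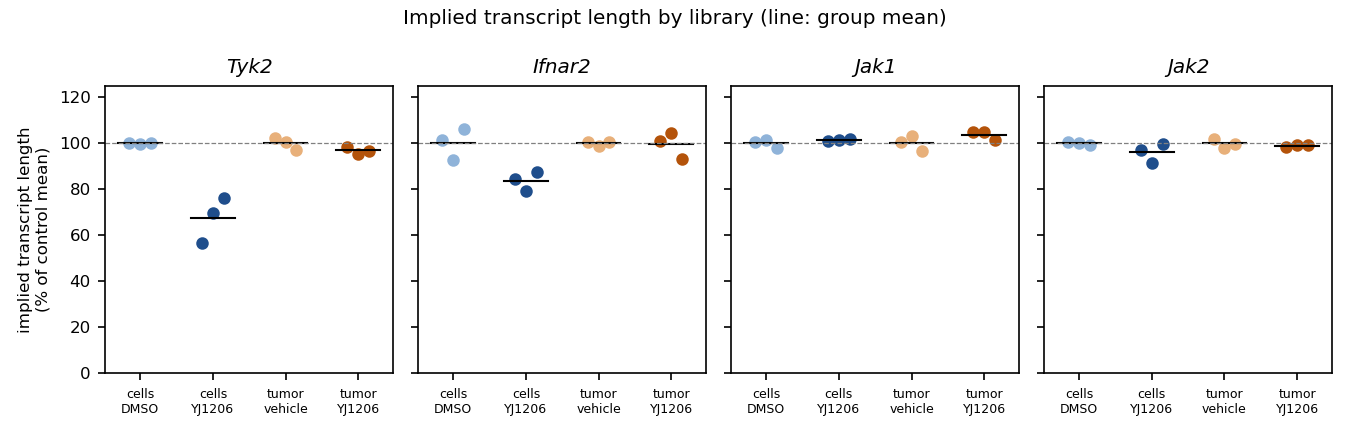
Implied transcript length (y axis, percent of the control mean) of Tyk2, Ifnar2, Jak1 and Jak2 in each library, by group (x axis), with lines at group means. The 3 YJ1206 cell libraries of Tyk2 lie between 56.8% and 76.1%, below every other library shown for that gene.

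The other genes of the pathway were counted from lists written by hand, with earlier results of these data known. Among the other JAK and STAT genes, Stat3 (log2FC 0.44 in cells and 0.34 in tumors) and Stat5a (2.04 and 0.73) rose in both. Stat5b rose in cells (0.46) and had a log2FC of -0.10 in tumors (adjusted p = 0.63), and Stat6, the IL-4 response factor, fell in cells (-0.79 ± 0.06). Among the IRF genes, Irf1 rose in both (0.24 and 0.66), Irf7 rose in cells from at most 2 counts per library to 13 to 19 (adjusted p = 8.53e-07), and Irf2 rose there too (0.82). In cells Irf7 passed the expression filter only through the YJ1206 libraries. Irf3, which acts under STING, fell in cells (-0.37 ± 0.08), and Irf8 fell in cells (-2.01) and rose in tumors (0.40). In cells Irf8 passed the filter only through the DMSO libraries, with 21 to 23 counts against 2 to 5 with YJ1206. Neighboring Il10rb followed Ifnar1 in direction in cells (-0.83 ± 0.17, adjusted p = 0.00010) and rose in tumors (0.78 ± 0.09, adjusted p = 0.0017). Il20rb fell in cells (-1.50).

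Among the inhibitors of JAK-STAT signaling, 10 of 17 tested rose in cells and 4 fell, whereas 3 of 18 rose and 5 fell in tumors. Of all genes tested, 37.8% rose and 38.3% fell in cells, and 11.9% rose and 14.9% fell in tumors, so the 14 of 17 called in cells stand near the 76.1% of all genes. Over the other scalings, filters, units and tools 5 to 11 rose in cells, and in tumors 0 to 4 rose and 0 to 7 fell, with 0 in each direction when both replicate 3 tumor libraries were left out. Ptpn2, a phosphatase that acts on JAK1, rose in cells (1.42 ± 0.05) and was lower in tumors (-0.22 ± 0.07, adjusted p = 0.045). Ptpn11 also passed as higher in cells (0.30) and as lower in tumors (-0.18). In cells alone, Ptpn6 (2.13), Socs7 (1.02), Pias2 (0.92) and Ptpn1 (0.83) were among those that rose, and Pias3 fell (-0.64). Ptpn6 had 7 to 15 counts with DMSO and 30 to 43 with YJ1206, and it passed the expression filter only through the YJ1206 libraries. Socs3 (-0.56 and -1.12), Socs4 (-0.49 and -0.35) and Socs5 (-1.20 and -0.53) fell in both, and Socs2 rose in both (0.32 and 0.63). Usp18, which binds IFNAR2 and restrains its signal, rose in tumors (1.76 ± 0.34, adjusted p = 0.0094), and Cish did too (1.28 ± 0.15). Socs1, the main induced inhibitor of JAK1, had a log2FC of 0.69 ± 0.32 in cells (adjusted p = 0.054) and -0.10 ± 0.28 in tumors (0.83). None of the 21 interferon genes had enough counts to be tested in either experiment, with at most 6 counts in any library.

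Most targets of ISGF3 rose in tumors, and in cells those that passed were divided. In tumors 22 of the 31 listed genes rose and none fell, where 11.9% of all genes rose (median log2FC 0.69, against 0.0091 for all genes). In cells 11 could be tested, of which 3 rose and 3 fell (median -0.12, against -0.017), and these 6 of 11 are not above the 76.1% of all genes called. Irf7, counted among those that rose, had at most 2 counts per DMSO library. It passed the expression filter only through the YJ1206 libraries, so it could hardly have been called lower. The difference of effects passed for 13 of the 31, higher in tumors for 9 and lower for 4, against 46.8% of all genes called and 20.8% higher in tumors, so that count is not above the background. The largest called changes in tumors were Usp18 (1.76), Ifit3b (1.52) and Cmpk2 (1.34). In cells, Irf7, Isg15 (2.18) and Bst2 (0.41) rose, while Eif2ak2 (-0.93), Ifit2 (-0.70) and Trim25 (-0.16) fell. Bst2, an antiviral tether, rose in both. Eif2ak2 and Trim25 rose in tumors (0.27 and 0.39). Of the genes listed as targets of IFN-γ through GAS, 5 of 8 tested were higher in cells, among them Irf1. Of these, Cxcl10 went from at most 1 count per library to 11 to 25, Psmb8 from 1 to 3 counts to 12 to 17, and Tap1 from 8 to 13 counts to 24 to 27. Cxcl10, Psmb8 and Tap1 passed the expression filter only through the YJ1206 libraries, so they could hardly have been called lower. The cell count is therefore not set against the 37.8% of all genes that were higher in cells. In tumors 9 of 19 were higher and 1 was lower, and 11.9% of all genes were higher. Without libraries 3, no gene of these lists passed in tumors.

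**Figure D5:**
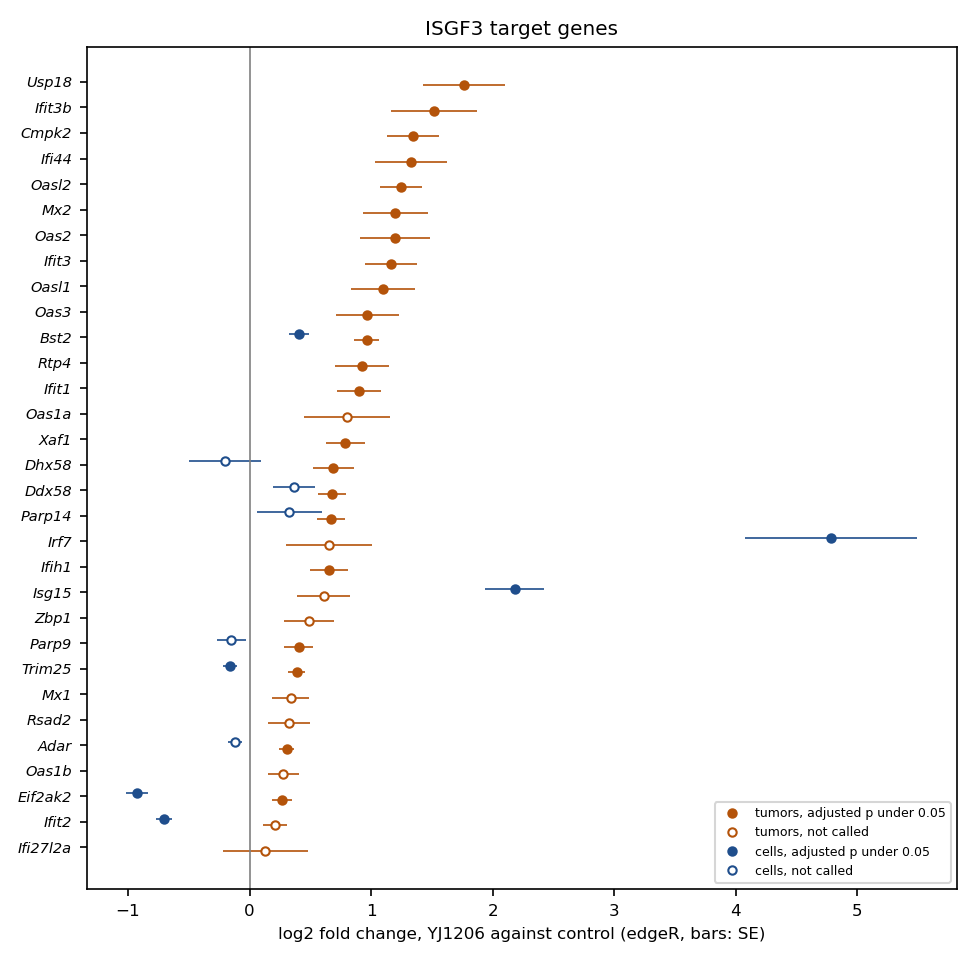
Log2 fold change with YJ1206 (x axis, bars: SE) of the ISGF3 target genes, in tumors (orange, 31 genes) and in cells (blue, the 11 genes with enough counts). Filled points passed an adjusted p of 0.05, and all 31 tumor values lie above 0. The cell value of Irf7 rests on at most 2 counts per DMSO library, so its size depends on the fit.

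For each member, the genes most like it were found by the correlation of log2(CPM + 1), centered within cells and within tumors, over the 12 libraries and among genes with a mean of at least 5 CPM in both. The closest were Poldip3 to Jak1 (r = 0.996), Lrp10 to Tyk2 (0.993), Myo5c to Jak2 (0.989), Ldb1 to Ifnar2 (0.984), Denn2b to Ifnar1 (0.971) and Glmp to Stat2 (0.968). Yipf1 to Ifngr1 (0.937), Slc35e3 to Irf9 (0.935) and Zfp719 to Ifngr2 (0.879) followed. These values share the 12 libraries and the treatment contrast, and are given as a description.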

How the data were processed

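RNA sequencing data of 12 libraries were used, 3 in each of 4 groups taken from the sample labels. For each experiment the authors deposited estimated counts per gene and TPM. Per the labels, processing used kallisto on GRCm38 (mm10), with no version given, from ribosomal RNA-depleted paired-end libraries. Deposited estimated counts were not scaled between libraries and were rounded here to whole numbers, and the deposited TPM were scaled by the authors within each library for transcript length. Assignment of reads among isoforms is estimated, which affects genes with few counts most.

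R 4.3.3 was used. The 6 cell libraries and the 6 tumor libraries were fitted separately by the quasi-likelihood test of edgeR 4.0.16, after its default expression filter and TMM scaling, with Benjamini-Hochberg adjustment over all genes tested and a threshold of 0.05. The difference of effects and the comparison of untreated groups came from 1 fit of the 12 libraries over the 34507 genes that the tables share. DESeq2 1.42.0, limma 3.58.1 on log2(TPM + 1) and log2(TPM + 0.1), other scalings, no filter, a replicate block and leaving out libraries were alternatives. Implied transcript length was tested with limma in genes with a mean of at least 20 counts and no zero in any library. The log2 range over the libraries also had to exceed 0.05. That range includes the treatment difference, so the share that passed is a share of varying genes. Scripts were tested on simulated data. When the simulated spread followed a trend over genes, the share of false calls stayed under the nominal level, but with each gene's own estimated spread it exceeded that level, most in tumors, so tumor calls may hold more false ones than the adjusted p states. Total counts per library set the counting precision.

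All 9 genes are named. List genes could be named where they passed in both experiments or belong to the JAK, STAT, IRF or inhibitor lists. Not every such gene is named. The choice among them, and of other list and receptor genes given with values, was made after their values were seen. Counts over the list of other JAK and STAT genes, and part of its values, are not reported here. Members and lists were chosen with earlier results of these data known. Promoters are from RefSeq and gene positions from GENCODE.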

Additional observations from a re-analysis of the deposited data

Results flagged for a closer look

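The effect of YJ1206 differed between tumors and cells for 7 of the 9 genes, by the test of the difference itself over all 12 libraries (edgeR). The difference of log2FC, tumors minus cells, was 0.44 for Ifnar1, 0.47 for Ifngr1, -1.38 for Jak1, 1.62 for Jak2, 1.79 for Tyk2, 1.65 for Stat2 and 0.71 for Irf9. Only Jak2 passed in both experiments with opposite signs. For Jak1, Tyk2 and Ifnar1 the cell effect passed and the tumor effect did not, while for Stat2, Irf9 and Ifngr1 the reverse held. The Irf9 difference was lost in most fits that left out 1 library, with adjusted p up to 0.12.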

How the results depend on the processing

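Direction was kept under every alternative for all 9 genes in cells, for all but Ifngr2 in tumors, for all but Ifngr1 in the comparison of untreated groups, and for all 9 in the difference of effects. In cells, total-count scaling, log2(TPM + 1) and log2(TPM + 0.1) each called 8 genes, 6 of them lower. Leaving out 1 library gave 5 to 6 called, 2 higher and 3 to 4 lower. In tumors, log2(TPM + 1), log2(TPM + 0.1) and log2(TPM + 1) without a filter each called 3 genes, all higher, and leaving out libraries 3 of both groups called 0. Leaving out 1 tumor library gave 3 to 6 called, 3 to 5 higher and 0 to 1 lower. Vehicle library 3 alone took the count to 3. The fit of all 12 libraries called 1 tumor gene lower (Jak1, -0.29, adjusted p = 0.0063). In the difference of effects, leaving out 1 library gave 6 to 7 called, 5 to 6 higher and 1 to 2 lower. Under total-count scaling 1 gene was lower in vehicle tumors than in DMSO cells, in place of 2.

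Ifngr2 in tumors turned to -0.045 with log2(TPM + 1), with or without a filter, -0.049 with log2(TPM + 0.1), -0.0295 in the fit of all 12 libraries, and ran from -0.12 to 0.13 when 1 library was left out, below 0 without YJ1206 library 2, YJ1206 library 3 or vehicle library 2. Ifngr1 in the untreated comparison turned to -0.010 with no count filter and ran from -0.0793 to 0.059 when 1 library was left out. No cause was tested. Over all genes, total counts changed the calls in cells from 4467 higher of 8995 to 3314 of 9190, and upper quartile scaling changed those in tumors from 1854 higher of 4176 to 2580 of 4355.

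Replicate numbers did not pair the libraries, since deviations of same-numbered libraries correlated at -0.029 to 0.010 in cells and -0.014 to 0.00076 in tumors. With the replicate number as a block, Stat2 passed as lower in cells (-0.41, adjusted p = 0.038), 1 tumor gene passed as lower (Jak1, -0.24, adjusted p = 0.032), and the Irf9 difference of effects was lost (0.75, adjusted p = 0.072). Depth limits Ifngr2, Stat2 and Irf9 in cells, with 10 to 131 counts per library.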
